A study of Zea mays with 18 samples.

Results

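The enzymes sh1 and mn1, which open the use of sucrose in maize, and the sugar transporters SWEET13a, SWEET13b and SWEET13c were followed through anther development in plants with and without an active ZmCCT10 transgene. The members were fixed as 5 genes by identifier: sh1 (Zm00001d045042), mn1 (Zm00001d003776), SWEET13a (Zm00001d023677), SWEET13b (Zm00001d023673) and SWEET13c (Zm00001d041067). All 5 were found among the 45578 genes that the deposited tables list. The tables give identifiers only, so the names follow the usual assignment of these identifiers in maize genetics. RNA was sequenced from anthers of Zea mays at the stages labelled S3-4, S5-6 and S7. The transgenic groups, ZmCCT(+), carry the active ZmCCT10 transgene, and the control groups, ZmCCT(-), are non-transgenic. Each of the 6 groups has 3 libraries. The promoter of the transgene, the number of transgenic lines, the age of the plants and whether libraries came from separate plants are not given in the labels, so a p-value covers no more than the variation among these libraries, part or all of which may be technical.

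Anthers import their carbon mainly as sucrose from the phloem. Sucrose synthase, the enzyme encoded by sh1, splits sucrose with UDP into UDP-glucose and fructose and is best known from the starchy endosperm of the kernel, where its loss gives shrunken grains. Cell wall invertase, the enzyme encoded by mn1, splits sucrose into glucose and fructose outside the cell and is best known from the base of the endosperm, where its loss gives miniature seeds. SWEET proteins are membrane transporters that let sugars pass down their gradient. The SWEET13 genes of maize encode sucrose transporters known for moving sucrose out of leaf cells towards the phloem, and they are close paralogs of each other.

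The S3-4 ZmCCT(+) libraries stood apart from the others, and every result at that stage or in a step from it in ZmCCT(+) rests on them. Pearson's r of log2 CPM across genes was at most 0.843 between the genotypes at S3-4, and at least 0.950 between them at S5-6 and 0.947 at S7. CPM here is the count scaled to library size, with TMM factors between libraries. Total counts ran from 14846974 to 23652182 per library. The tissue label could be compared only with microRNA precursors of anther phased small RNA pathways, the genes named in the tables. Those of the zma-MIR2118 family had counts in every group. Those of the zma-MIR2275 family had counts in every group but S3-4 ZmCCT(+), where none of the 4 precursors had one. Their summed level was 0.567 to 0.832 CPM in the S3-4 controls. For these precursors alone, CPM was scaled to library totals without TMM factors. The family was also lower in ZmCCT(+) later, at 3.81 to 4.82 CPM against 19.3 to 23.5 at S5-6 and at 1.21 to 2.04 against 23.7 to 25.5 at S7. Its part in the results below was not tested. The level of ZmCCT10 was not used here as a check of the labels, since its identifier is not paired with a name. In whole anthers, fewer cells of a type and less RNA per cell cannot be told apart.

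The genotype difference changed from stage to stage for each of the 5 genes. At S3-4 sh1 and the 3 SWEET13 genes were higher in ZmCCT(+) and mn1 was not detected there. At S5-6 mn1 was higher in ZmCCT(+) and sh1 slightly so, while SWEET13a and SWEET13b were lower. At S7 SWEET13c was higher, sh1 slightly so, and the other 3 did not pass the test. Tests were edgeR's quasi-likelihood test on the counts of all 24694 genes with enough reads, and a gene passed at an adjusted p below 0.05 over all of them.

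At S3-4 all 5 genes passed, 4 higher and 1 lower in ZmCCT(+), in a comparison where 81.3% of all genes tested passed, 40.4% as higher and 40.9% as lower. At S5-6, 4 of the 5 passed, 2 in each direction, against 63.1% of all genes, 29.8% as higher and 33.4% as lower. At S7, 2 of the 5 passed, both higher, against 54.5% of all genes, 24.1% as higher and 30.4% as lower. With 5 genes these counts stand near the background, so that passing does not set the members apart. Of all calls at S7, 64.4% were higher when log2(TPM + 1) was tested with limma, a setting that also moved the median of all genes by 0.14 on the log2 scale. At S3-4 the median over all genes shifted by -0.18 without TMM factors, and each member kept its direction and call there. The median log2 fold change of the 5 genes was 1.19 at S3-4, 0.25 at S5-6 and 0.14 at S7. At each stage this is the value of sh1, so it does not stand for the set. At S5-6 the members ran from -1.82 (SWEET13a) to 2.53 (mn1). Over all genes tested the median was -0.01, -0.02 and -0.04, which TMM scaling holds near 0.

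**Figure D1:**
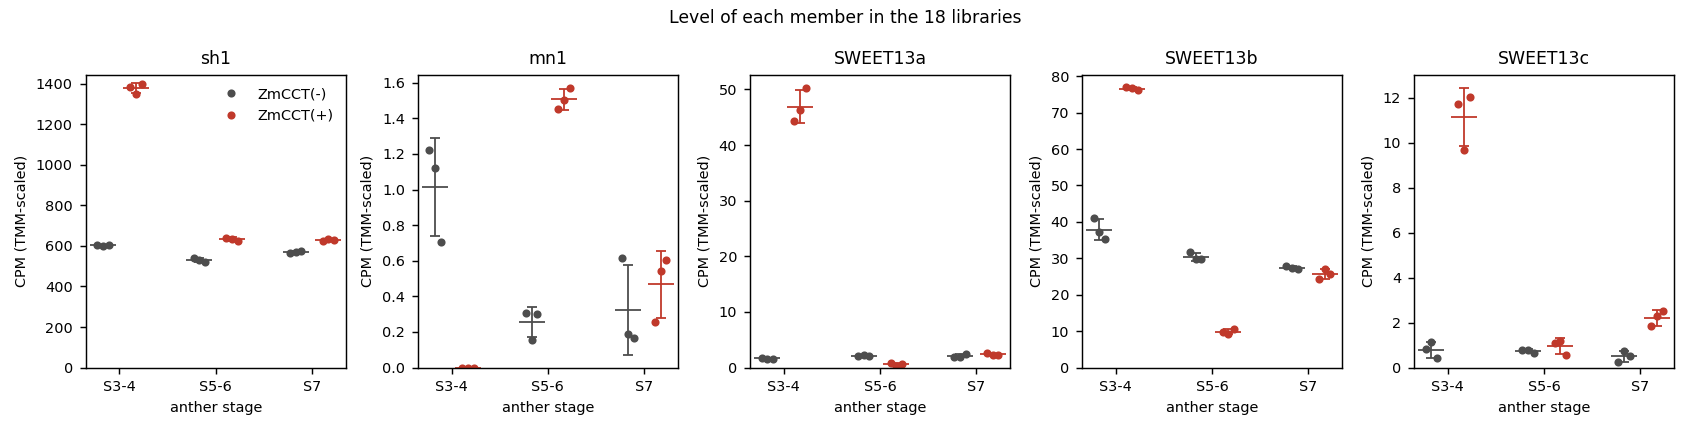
Level of each gene in CPM (TMM-scaled, linear axis from 0) in every library by anther stage, with the mean (horizontal line) and SD of the 3 libraries, ZmCCT(-) in grey and ZmCCT(+) in red. The S3-4 ZmCCT(+) libraries lie above all others for sh1 and the 3 SWEET13 genes and at 0 for mn1.

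Per length, the sucrose synthase gene sh1 was by far the most abundant of the 5. It lies on the plus strand of chromosome 9 from 10906934 to 10912944. Coordinates are the tables' own, and no genome build is named for them in the sources used here. Its level as the authors' TPM was 293 ± 1.24 (SD, n = 3) in the S3-4 controls. There it exceeded 98.7% of the genes with a TPM above 0.

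In ZmCCT(-), sh1 was at 605, 599 and 604 CPM at S3-4, at 540, 532 and 523 CPM at S5-6 and at 567, 571 and 575 CPM at S7. In ZmCCT(+), it was at 1384, 1351 and 1397 CPM at S3-4, at 641, 635 and 625 CPM at S5-6 and at 622, 633 and 628 CPM at S7. The S3-4 transgenic libraries were thus far above any other, and the genotypes did not overlap at any stage. At S3-4 the difference was 2.28-fold (log2 1.19 ± 0.02 SE, adjusted p = 3.43e-65 by edgeR), a size that 16.5% of all genes tested equalled or exceeded in the same direction. At S5-6 sh1 was 1.19-fold higher (log2 0.25 ± 0.02 SE, adjusted p = 4.76e-19 by edgeR) and at S7 1.10-fold higher (log2 0.14 ± 0.02 SE, adjusted p = 2.13e-08 by edgeR). These last 2 differences are small. With an assumed spread of 20% between replicates, neither passed (adjusted p = 0.512 and 0.827 by edgeR's likelihood ratio test). The spread estimated in common for all genes was 3.20%, and the main test also fits a spread for each gene. The S7 difference was 0.28 on log2(TPM + 1), with the median of all genes also moved up by 0.14. By mean level sh1 ran from S3-4 ZmCCT(+) through S5-6 and S7 ZmCCT(+), whose libraries overlapped, to the controls at S3-4, S7 and S5-6.

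The cell wall invertase gene mn1 had few reads in any group, so its values are given as counts. It lies on the plus strand of chromosome 2, from 58876332 to 58879327. In ZmCCT(-) its counts were 21, 19 and 13 at S3-4, 7, 3 and 5 at S5-6 and 10, 4 and 3 at S7. In ZmCCT(+) they were 0, 0 and 0 at S3-4, 30, 38 and 28 at S5-6 and 4, 11 and 11 at S7. The highest group was therefore S5-6 ZmCCT(+) and the lowest S3-4 ZmCCT(+), the group in which sh1 was highest.

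At S3-4 mn1 was at 1.02 ± 0.275 CPM (SD, n = 3) in ZmCCT(-) and without a count in ZmCCT(+), at least 15.7-fold lower against a floor of 3 counts over the 3 libraries (edgeR adjusted p = 1.44e-09). A count of 0 there allows up to 0.0642 CPM, and this floor covers counting error only. At S5-6 the direction was opposite, with 1.51 ± 0.0579 CPM in ZmCCT(+) and 0.254 ± 0.0844 in ZmCCT(-), or 5.77-fold higher (log2 2.53 ± 0.42 SE, adjusted p = 2.14e-07 by edgeR). Of all genes tested, 0.672% had a log2 fold change as high at S5-6. On log2(TPM + 1), which compresses low levels, the value was 1.03. At S7 the levels were 0.467 ± 0.187 and 0.323 ± 0.254 CPM, the groups overlapped, and the difference did not pass (log2 0.62 ± 0.52 SE, adjusted p = 0.316 by edgeR). The S7 value was 1.40 without S7 ZmCCT(-) replicate 1 (adjusted p = 0.0598 by edgeR), and 0.33 was the lowest without any other library. By mean level both S7 groups and the S5-6 controls overlapped with their neighbours in the order, and the other groups did not.

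Of the 3 transporters, SWEET13b was the main form in every library. It lies on the plus strand of chromosome 10, from 14795157 to 14798022. In ZmCCT(-) it was at 41.0, 37.3 and 35.2 CPM at S3-4, at 31.8, 29.7 and 29.8 CPM at S5-6 and at 28.0, 27.2 and 27.1 CPM at S7. In ZmCCT(+) it was at 77.1, 76.6 and 76.2 CPM at S3-4, at 9.83, 9.16 and 10.6 CPM at S5-6 and at 24.3, 27.0 and 25.7 CPM at S7. Control levels thus lay within a narrow band while the transgenic levels were above it at S3-4 and well below it at S5-6.

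SWEET13b was 2.03-fold higher in ZmCCT(+) at S3-4 (log2 1.02 ± 0.05 SE, adjusted p = 1.12e-30 by edgeR) and 3.11-fold lower at S5-6 (log2 -1.64 ± 0.07 SE, adjusted p = 3.73e-35 by edgeR). At S5-6, 3.35% of all genes tested had a log2 fold change as low. At S7 the difference did not pass (log2 -0.09 ± 0.06 SE, adjusted p = 0.228 by edgeR), although the 3 transgenic libraries lay just under the 3 controls, and its sign turned with TPM (log2 0.06). None of the 6 group ranges of SWEET13b overlapped with the next in the order of means, which ran from S3-4 ZmCCT(+) through the controls at S3-4, S5-6 and S7 to ZmCCT(+) at S7 and S5-6.

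SWEET13a showed the largest gain of the 5 genes at S3-4. It lies on the same strand of chromosome 10 as SWEET13b, from 15030181 to 15032801. In ZmCCT(-) it was at 1.80, 1.59 and 1.57 CPM at S3-4, at 2.05, 2.24 and 2.10 CPM at S5-6 and at 1.97, 1.97 and 2.48 CPM at S7. In ZmCCT(+) it was at 44.3, 46.2 and 50.2 CPM at S3-4, at 0.871, 0.316 and 0.672 CPM at S5-6 and at 2.54, 2.22 and 2.30 CPM at S7. The 3 S3-4 transgenic libraries stood far above all the others, and the 3 at S5-6 were the lowest.

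At S3-4 SWEET13a was 28.3-fold higher in ZmCCT(+) (log2 4.82 ± 0.13 SE, adjusted p = 9.44e-51 by edgeR), a log2 fold change that 1.55% of all genes tested reached. The gain took it from 87 counts over 3 control libraries to 2197 over 3 transgenic ones. At S5-6 it was 3.54-fold lower (log2 -1.82 ± 0.25 SE, adjusted p = 9.29e-10 by edgeR), close to the change of SWEET13b at that stage. On log2(TPM + 1) the S5-6 value was -0.98. SWEET13a had only 18, 8 and 12 counts in S5-6 ZmCCT(+), and without single libraries the S5-6 value ran from -2.18 to -1.45. At S7 the groups overlapped and the difference did not pass (log2 0.13 ± 0.19 SE, adjusted p = 0.585 by edgeR). By mean level S7 ZmCCT(+), S7 ZmCCT(-) and S5-6 ZmCCT(-) followed each other with overlapping ranges.

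SWEET13c, which lies apart from the other 2 on the plus strand of chromosome 3 (94632377 to 94634331), had the lowest mean TPM of the 3 at S3-4 in both genotypes (0.836 in ZmCCT(-) and 11.3 in ZmCCT(+)). In ZmCCT(-) it was at 0.815, 1.12 and 0.433 CPM at S3-4, at 0.787, 0.783 and 0.659 CPM at S5-6 and at 0.247, 0.749 and 0.497 CPM at S7. In ZmCCT(+) it was at 11.7, 9.66 and 12.1 CPM at S3-4, at 1.11, 1.18 and 0.560 CPM at S5-6 and at 1.84, 2.27 and 2.52 CPM at S7. The genotypes separated completely at S3-4 and S7 and overlapped at S5-6.

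SWEET13c was 14.2-fold higher in ZmCCT(+) at S3-4 (log2 3.83 ± 0.23 SE, adjusted p = 7.74e-27 by edgeR), which 2.77% of all genes tested equalled. At S7 it was 4.25-fold higher (log2 2.09 ± 0.31 SE, adjusted p = 1.10e-08 by edgeR), a log2 fold change reached by 1.35% of all genes, and it was the only SWEET13 gene to pass at that stage. Behind the S7 value are 121 counts from transgenic and 29 from control libraries, and it was 1.24 on log2(TPM + 1). At S5-6 the difference did not pass (log2 0.39 ± 0.32 SE, adjusted p = 0.296 by edgeR). The 3 control groups and S5-6 ZmCCT(+) overlapped with their neighbours in the order of means.

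**Figure D2:**
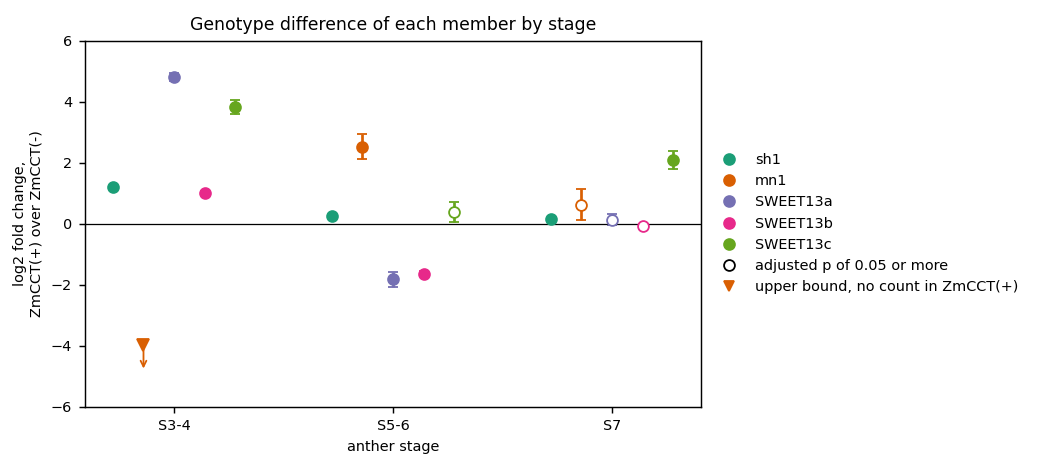
Log2 fold change of each gene between ZmCCT(+) and ZmCCT(-) at each anther stage with its SE (edgeR), filled where the adjusted p was below 0.05; the triangle and arrow mark mn1 at S3-4 as an upper bound, since it had no count in ZmCCT(+). SWEET13a moves from 4.82 at S3-4 to -1.82 at S5-6, and mn1 from below its bound to 2.53.

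Taking the genotypes' non-overlapping ranges instead of the test, 5 of the 5 genes were separated at S3-4, 4 at S5-6 and 3 at S7, where the same held for 81.0%, 66.5% and 59.8% of all genes tested. The S7 count includes SWEET13b, which did not pass the test. In the distribution of all genes, SWEET13a and SWEET13c at S3-4, mn1 at S5-6 and SWEET13c at S7 lay far out in the upper tail. SWEET13a and SWEET13b at S5-6 lay in the lower tail, where 2.73% and 3.35% of all genes tested were as low. By edgeR's estimate mn1 at S3-4, without a count in ZmCCT(+), lay in the lower tail too. The log2 fold change of sh1 lay closer to the middle at each stage.

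**Figure D3:**
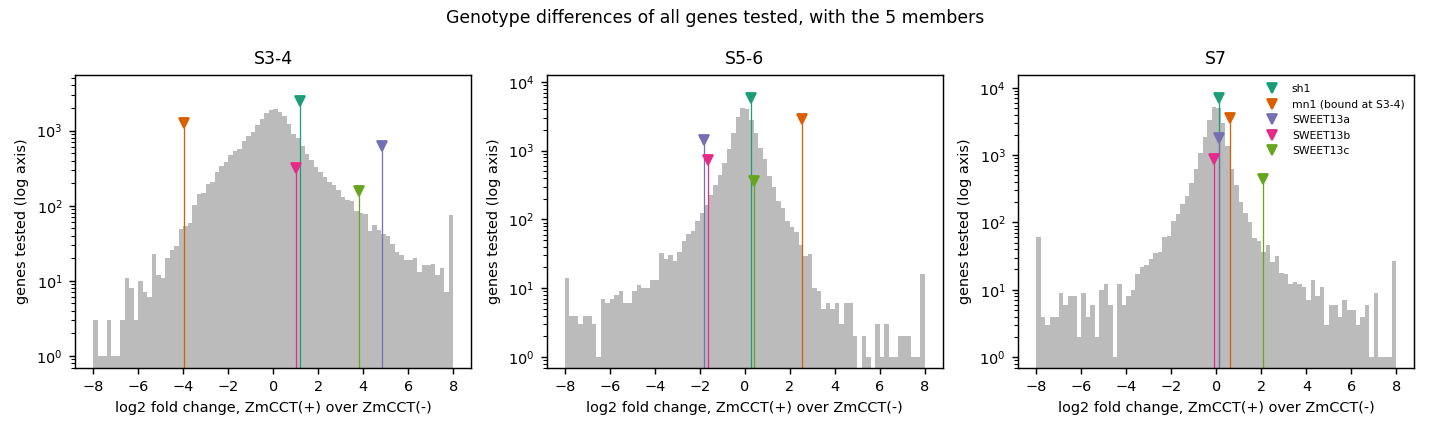
Histograms of the log2 fold change between ZmCCT(+) and ZmCCT(-) for all 24694 genes tested at each stage (number of genes on a log axis, values beyond the range of the axis gathered in the end bars), with lines and triangles for the 5 genes. The distribution is widest at S3-4, where SWEET13a lies at 4.82 and mn1 is drawn at its bound.

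Because the 3 SWEET13 genes are close paralogs and the sources used here do not say how reads that match several of them were assigned, their counts were also summed. The sum was at 43.7, 40.0 and 37.3 CPM in the S3-4 controls and at 133, 133 and 138 CPM in S3-4 ZmCCT(+). It was thus 3.35-fold higher in ZmCCT(+) at S3-4 (log2 1.74 ± 0.05 SE, adjusted p = 1.63e-50 by edgeR). At S5-6 the sum was 2.93-fold lower (log2 -1.55 ± 0.07 SE, adjusted p = 7.47e-36 by edgeR), and at S7 the difference did not pass (log2 0.01 ± 0.06 SE, adjusted p = 0.881 by edgeR). At S3-4 the fold of the sum lay between those of SWEET13b and SWEET13a. At S5-6 and S7 it was close to that of SWEET13b, and the S7 gain of SWEET13c was not visible in it. The part of shared reads in the single values was not tested.

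The make-up of the SWEET13 sum differed between groups. Per length, as TPM, SWEET13b held 94.8% ± 0.720 of the sum (SD, n = 3) in the S3-4 controls, 92.5% ± 0.181 at S5-6 and 92.1% ± 1.10 at S7. In ZmCCT(+) its share was 59.96% ± 1.29 at S3-4, 87.5% ± 3.03 at S5-6 and 86.5% ± 0.611 at S7. The S3-4 transgenic anthers were the only group with a large share of SWEET13a, at 31.8% ± 0.996 against 3.51% ± 0.0596 in the controls. In ZmCCT(+), SWEET13c held 8.21% ± 0.863 of the sum at S3-4, 7.92% ± 3.12 at S5-6 and 6.78% ± 0.962 at S7. Its control shares were 1.73% ± 0.672, 2.10% ± 0.154 and 1.60% ± 0.623. The share of SWEET13c was thus higher in ZmCCT(+) at each stage, whether the sum was higher (S3-4), lower (S5-6) or close (S7). A share also depends on the other genes in the sum. At S5-6 the level of SWEET13c itself did not pass (log2 0.39, edgeR adjusted p = 0.296), while SWEET13a and SWEET13b were lower.

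**Figure D4:**
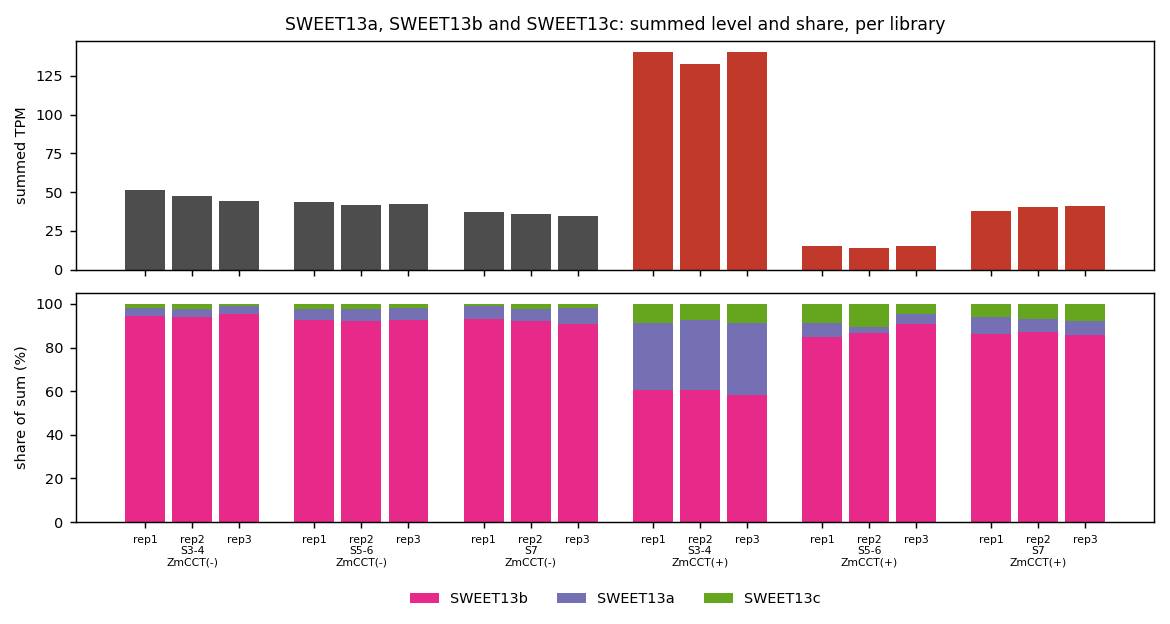
Upper bars, the summed TPM of SWEET13a, SWEET13b and SWEET13c in each library, ZmCCT(-) in grey and ZmCCT(+) in red; lower bars, the share of each gene in that sum in percent. The sum is highest in S3-4 ZmCCT(+), at 138 ± 4.46 TPM, and lowest in S5-6 ZmCCT(+), at 14.9 ± 0.827 TPM, and SWEET13a takes a large share only in the former.

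Within a library the ratio of 2 members does not depend on scaling between libraries, apart from the added pseudocount, which matters at low levels. The log2 TPM ratio (pseudocount 0.1) of SWEET13a to SWEET13b was -0.91 ± 0.07 in S3-4 ZmCCT(+) and -4.67 ± 0.03 in its controls, a difference of 3.76 (exact two-sided permutation p = 0.10, n = 3 per group, the smallest that 3 against 3 can give). At S5-6, where both genes were lower in ZmCCT(+), the same ratio differed by -0.08 (exact permutation p = 0.80), and by 0.55 with a pseudocount of 1 (exact permutation p = 0.10). The log2 ratio of SWEET13b to SWEET13c differed between ZmCCT(+) and ZmCCT(-) by -2.81 at S3-4, by -1.88 at S5-6 and by -2.05 at S7, each with no overlap between genotypes and an exact permutation p of 0.10. The log2 ratio of sh1 to mn1 differed by -2.39 at S5-6 (exact permutation p = 0.10). There mn1 is listed at 0 TPM in control replicate 2, so that the pseudocount sets its ratio, and the difference was -1.80 without that library and -0.74 with a pseudocount of 1. The ratio was not computed at S3-4, where mn1 was at 0, and differed by -0.25 at S7 (exact permutation p = 0.80).

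Along development of the control anthers the 5 genes moved little, apart from mn1. From S3-4 to S5-6, 3 of the 5 passed, all lower, against 56.3% of all genes tested, 28.4% as lower and 27.9% as higher. The share of calls that were higher, 49.6%, became 65.8% without TMM factors and 67.7% on either TPM scale, where the median of all genes shifted by 0.11 and by 0.12. mn1 fell 3.88-fold (log2 -1.96 ± 0.46 SE, adjusted p = 0.000189 by edgeR). SWEET13b fell 1.24-fold (log2 -0.31 ± 0.06 SE, adjusted p = 3.68e-06 by edgeR) and sh1 1.13-fold (log2 -0.18 ± 0.02 SE, adjusted p = 2.48e-12 by edgeR), though sh1 did not pass on log2(TPM + 1) (limma adjusted p = 0.0565). SWEET13a and SWEET13c had log2 changes of 0.36 ± 0.21 SE and -0.06 ± 0.35 SE that did not pass. SWEET13a did pass without TMM factors (log2 0.47, adjusted p = 0.0454 by edgeR) and on log2(TPM + 1) (0.30, limma adjusted p = 0.0228).

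From S5-6 to S7, 2 of the 5 passed in the controls, 1 in each direction, against 42.4% of all genes tested, 22.5% as higher and 19.9% as lower. Higher calls made up 53.1%, but 33.6% on log2(TPM + 0.1), close to that on log2(TPM + 1), and 64.2% with the assumed spread of 20%. sh1 was 1.07-fold higher (log2 0.10 ± 0.02 SE, adjusted p = 2.54e-05 by edgeR), a difference that was 0.0015 on log2(TPM + 1). SWEET13b was 1.11-fold lower (log2 -0.15 ± 0.06 SE, adjusted p = 0.0364 by edgeR), and this was lost without S5-6 ZmCCT(-) replicate 1 or S7 ZmCCT(-) replicate 2 or 3 (edgeR adjusted p = 0.166, 0.0818 and 0.0810). Over the whole control span from S3-4 to S7, 3 of the 5 passed, all lower, against 64.7% of all genes tested, 31.8% as lower and 32.9% as higher (62.8% of calls higher without TMM factors, against 50.8%). mn1 was 3.24-fold lower (edgeR adjusted p = 0.000724) and SWEET13b 1.38-fold lower (edgeR adjusted p = 1.26e-10). sh1 passed at a log2 change of -0.08 (edgeR adjusted p = 0.000623), which turned to 0.03 with library totals alone. Without S7 ZmCCT(-) replicate 1 the log2 change of mn1 over this span was -2.47, against -1.69. SWEET13a, which had not passed over the span, did so without TMM factors (adjusted p = 0.0396 by edgeR) and on log2(TPM + 1) (limma adjusted p = 0.0293), and SWEET13c did without S3-4 ZmCCT(-) replicate 3 (adjusted p = 0.0459 by edgeR).

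In transgenic anthers the first step was large for mn1 and the SWEET13 genes. For sh1, 45.6% of all genes tested changed at least as much. From S3-4 to S5-6 all 5 passed, 4 lower and 1 higher, against 85.9% of all genes tested, 43.8% as lower and 42.1% as higher. Without TMM factors 60.7% of calls were higher, against 49.0%, and the median of all genes shifted by 0.34. SWEET13a fell 77.8-fold (log2 -6.28 ± 0.15 SE, adjusted p = 3.67e-55 by edgeR), SWEET13c 11.3-fold, SWEET13b 7.82-fold and sh1 2.17-fold (edgeR adjusted p of 9.09e-27 or lower for these 3). mn1 rose from no count to 96 counts, at least 23.4-fold (edgeR adjusted p = 2.35e-12). No other gene of the 5 went from undetected to detected between groups.

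From S5-6 to S7 in ZmCCT(+) the directions turned round, and 4 of the 5 passed against 63.6% of all genes tested, 31.4% as higher and 32.3% as lower. SWEET13a rose 3.90-fold, SWEET13b 2.63-fold and SWEET13c 2.26-fold (log2 1.96 ± 0.25, 1.39 ± 0.07 and 1.18 ± 0.26 SE, edgeR adjusted p = 6.44e-11, 1.50e-29 and 5.87e-05). mn1 fell 3.12-fold (log2 -1.64 ± 0.38 SE, adjusted p = 0.000109 by edgeR). sh1 had a log2 change of -0.01 ± 0.02 SE that did not pass (edgeR adjusted p = 0.581). The rises left SWEET13a and SWEET13b far below their S3-4 level, 19.97-fold and 2.98-fold lower over the whole span (edgeR adjusted p = 2.03e-49 and 5.93e-42). From S3-4 to S7 all 5 passed in ZmCCT(+), 4 lower and mn1 higher, against 81.9% of all genes tested, 42.6% as lower and 39.4% as higher. Of these calls 48.1% were higher, against 62.2% without TMM factors and 60.8% on log2(TPM + 1).

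The test of whether the genotype difference varied between stages passed for 5 of the 5 genes, against 86.6% of all genes tested, and between S3-4 and S7 the change passed for 5 of 5, against 74.0%. From S3-4 to S5-6 the log2 genotype difference dropped by 6.65 ± 0.29 SE for SWEET13a, by 2.66 ± 0.09 for SWEET13b, by 3.44 ± 0.43 for SWEET13c and by 0.94 ± 0.03 for sh1, while that of mn1 rose (edgeR adjusted p = 1.53e-13). All 5 passed in that comparison, as did 76.9% of all genes tested. From S5-6 to S7 all 5 passed again, against 60.5% of all genes tested. The difference rose by 1.96 ± 0.32 for SWEET13a, by 1.55 ± 0.10 for SWEET13b and by 1.70 ± 0.46 for SWEET13c (edgeR adjusted p = 1.42e-07, 3.04e-25 and 0.000936). For mn1 it dropped by 1.90 ± 0.71 (edgeR adjusted p = 0.0164), which did not hold without S7 ZmCCT(-) replicate 1 (log2 -1.13, adjusted p = 0.270). For sh1 it dropped by 0.12 ± 0.03 (edgeR adjusted p = 0.000393), which was lost on log2(TPM + 1) (log2 -0.0047, limma adjusted p = 0.911).

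Some correlations between the genes depended on whether the S3-4 ZmCCT(+) libraries were included. Without these libraries, correlations describe 15 libraries from 5 groups. Over those 15, log2 CPM of SWEET13a and SWEET13b had Pearson's r = 0.824, against 0.870 over all 18. That of mn1 and SWEET13a had r = -0.744 over the 15 and -0.875 over all 18. For sh1 and mn1 the sign turned, with r = 0.672 over the 15 and -0.655 over all 18. For sh1 and SWEET13a r was -0.475 over the 15 libraries and 0.890 over all 18, so the positive value rests on the S3-4 transgenic libraries. The same held for sh1 and SWEET13b, with r = -0.511 over the 15 and 0.634 over all 18. SWEET13c followed neither paralog over the 15 libraries. Its r with SWEET13a was 0.043, against 0.832 over all 18, and with SWEET13b -0.123, against 0.587. The libraries of a group share their stage and genotype, and no p is given.

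The genes whose log2 CPM followed each member most closely over the 18 libraries were sought among those with a mean of at least 1 CPM. They were Zm00001d042624 and Zm00001d003671 for sh1 (Pearson's r = 0.996 and 0.994, Spearman's rho = 0.903 and 0.860). For SWEET13b they were Zm00001d029608 and Zm00001d044225 (r = 0.994 and 0.993, rho = 0.961 and 0.955), and for SWEET13a Zm00001d014587 and Zm00001d044307 (r = 0.990 and 0.989, rho = 0.800 and 0.709). For SWEET13c they were Zm00001d003544 and Zm00001d005015 (r = 0.976 and 0.975, rho = 0.895 and 0.922), and for mn1 Zm00001d037094 and Zm00001d033859 (r = 0.957 and 0.949, rho = 0.911 and 0.890). No gene was nearest to more than 1 of the 5, but with only 2 taken for each this says little about how alike the members were. Both genes nearest to sh1 were far higher in S3-4 ZmCCT(+), at means of 237 and 88.5 CPM, than in the other groups (47.1 to 62.3 and 5.23 to 8.76). Rank correlations were lower than r for each of these pairs, with the widest gaps for SWEET13a.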

How the data were processed

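Anther mRNA libraries were sequenced as paired-end reads, per the labels' protocols. The authors deposited 3 tables of raw counts per gene, 1 per stage and not normalised, and 18 tables per library with TPM and a coverage signal, per the file headers. The submitters' processing notes name Bowtie2, StringTie and DESeq2; the sources used here give no versions, settings, genome build, use of strand or handling of reads shared by paralogs. The stage of a count table was read from its name and the genotype and replicate from its column headings. Over 19459 genes, 18 of 18 count columns matched the coverage of their own library best (r from 0.976 to 0.993).

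In R 4.3.3, edgeR 4.0.16 was used. Its filterByExpr (minimum count 10, minimum total 15) kept 24694 of 45578 genes, all 5 members among them. Counts were scaled by TMM, with factors of 0.845 to 0.854 in S3-4 ZmCCT(+) and 0.961 to 1.08 elsewhere. The quasi-likelihood F test (robust) was run on 1 fit of 6 groups, with Benjamini-Hochberg adjustment over all genes in each of 13 comparisons. SE was taken as |log2 fold change| divided by √F. Ratios of members used log2(TPM + 0.1). The fit was tested on simulated data. Alternatives included the size factors and the test of DESeq2 1.42.0, limma 3.58.1 (voom, and trend on log2(TPM + 1) and log2(TPM + 0.1)), library totals, no filter, a minimum count of 50, a replicate block, only the libraries compared, no S3-4 libraries, an assumed spread of 20% with edgeR's likelihood ratio test, SWEET13 counts summed, and leaving out each library.

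The members, comparisons and lists were chosen with earlier results of these data known. All members are named; beside them, the rule named the 2 genes most correlated with each and the neighbours of the SWEET13 pair on chromosome 10. Of 43789 Zm00001d identifiers, 0 were in the gene table used here (assembly Zm-B73-REFERENCE-NAM-5.0), so other genes of sucrose use were not analysed here by name.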

Additional observations from a re-analysis of the deposited data

Results flagged for a closer look

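The genotype difference varied between stages for each of the 5 genes, by edgeR's test of the interaction. The adjusted p was 6.20e-52 for sh1, 8.88e-13 for mn1, 3.21e-39 for SWEET13a, 8.22e-43 for SWEET13b and 7.03e-11 for SWEET13c. For SWEET13a and SWEET13b the direction turned, from higher in ZmCCT(+) at S3-4 to lower at S5-6, in 3 of 3 libraries each time, and for mn1 it turned the other way. For sh1 and SWEET13c the difference was largest at S3-4. The interaction passed for 86.6% of all genes tested, so it does not set these genes apart.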

How the results depend on the processing

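Of the 11 passes of members between genotypes at a stage, 331 of 334 values under the alternatives kept direction and call. sh1 at S5-6 and S7 did not pass with the assumed spread of 20%, nor SWEET13c at S7 when SWEET13 counts were summed. Many of the 334 had little chance to change, since the library left out belonged to neither group compared. Values from summed SWEET13 counts are included, although the sum replaces the paralog. The stricter minimum count removed mn1, so the 334 hold no value for it there. The share kept is thus a weak check, above all for mn1. With the assumed spread (edgeR's likelihood ratio test), 1 member passed at S7, against 3280 of the 24694 genes tested. In ZmCCT(-), 1 passed from S3-4 to S5-6 and 1 from S3-4 to S7, against 4022 and 6084 of all genes tested. From S5-6 to S7, 0 passed, also at an unadjusted p below 0.05, while edgeR's quasi-likelihood test and the DESeq2 test each gave 2. Only 559 of all genes tested passed there with the assumed spread, so a count of 0 does not set the members apart. For that last step both TPM settings gave 1 and leaving out a library 1 to 2. The replicate numbers did not pair the libraries (0 of 45 same-numbered pairs had deviations correlated above 0.1), and the fit with the replicate block passed 5, 4 and 2 members at S3-4, S5-6 and S7, as without it. Over all genes the assumed spread lowered the calls from 15594 to 5471 at S5-6, from 13449 to 3280 at S7 and from 21376 to 13646 for the interaction. The cause of these changes was not tested.

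Tested values that reversed had not passed, apart from sh1 in ZmCCT(-) from S3-4 to S7 (0.032 with library totals). Those that reversed with SWEET13 sums, where the sum replaces the paralog, had not passed as single genes either. Summed, SWEET13c at S5-6 became -1.55, SWEET13b at S7 0.012, and SWEET13a in the 3 control steps -0.27, -0.15 and -0.42. SWEET13b at S7 was 0.056 and 0.058 with TPM pseudocounts of 1 and 0.1. SWEET13c in ZmCCT(-) from S3-4 to S5-6 was 0.048 with library totals, 0.031 by limma-voom, 0.062 and 0.16 by TPM, and -0.37 to 0.28 without single libraries. SWEET13a in ZmCCT(-) from S5-6 to S7 was -0.0100 with DESeq2 size factors and test, -0.0035 with no filter, -0.012 with a minimum count of 50, -0.00061 by limma-voom, -0.020 and -0.029 by TPM, -0.00039 without the S3-4 libraries, -0.011 with only the libraries compared, and -0.12 to 0.071 without single libraries. mn1 in that step ran from -0.51 to 0.56 without single libraries, and sh1 in ZmCCT(+) from S5-6 to S7 was 0.0011 with a minimum count of 50. With a TPM pseudocount of 1 the genotype difference in log2 ratio was 0.13 for sh1 to mn1 at S7 and 0.55 for SWEET13a to SWEET13b at S5-6 (exact permutation p = 0.10, the smallest possible); without single libraries these ran from -0.66 to 0.035 and from -0.29 to 0.15. mn1 and SWEET13c rest on few counts, as does SWEET13a in S5-6 ZmCCT(+), which limits their precision.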

Other observations

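SWEET13b and SWEET13a lie on the same strand of chromosome 10, 232158 bases apart in the deposited coordinates, with 2 listed genes between them. Zm00001d023674 (14798160 to 14799985, plus strand) starts 137 bases after the end of SWEET13b and had 767, 705 and 790 counts in the S3-4 controls and 546, 536 and 583 in S3-4 ZmCCT(+). It was lower in ZmCCT(+) at S3-4 (log2 -0.27 ± 0.06 SE, edgeR adjusted p = 1.47e-05), where SWEET13b was higher, and lower at S5-6 (log2 -0.95 ± 0.06 SE, edgeR adjusted p = 2.48e-25), where SWEET13b was lower too. At S7, where SWEET13b did not pass, Zm00001d023674 was also lower (log2 -0.29 ± 0.06 SE, edgeR adjusted p = 1.06e-05). Zm00001d023675, the other gene between them, had no count in any library. Beyond SWEET13a, Zm00001d023680 (15095362 to 15098284) was lower in ZmCCT(+) at each stage (log2 -0.38, -0.98 and -0.83, edgeR adjusted p = 0.00315, 4.59e-11 and 5.78e-08). Zm00001d023672, on the other side of SWEET13b, had 0 to 4 counts in a library. The S3-4 gain of the SWEET13 pair was thus not seen in the expressed genes beside them.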
